A study of Mus musculus with 11 samples.

Results

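Older LINE-1 elements are the copies of the L1 family whose repeat names do not begin with L1Md, the prefix of the young mouse subfamilies. They were taken from the deposited repeat table as all rows with family L1 and a name outside the L1Md group. This gave 74240 of the 442429 repeat features and 126 of the 1550 repeat names. Among them were 32253 features with 21 Lx names and 19151 features with 85 L1M names. The remainder comprised 21996 features named L1_M, L1_Rod or L1VL, 474 features of HAL1 names, 35 of L1P names and 331 of MusHAL1. A feature pools the copies that carry the same name and number on different chromosomes, so that the older L1 features cover 737876 genomic copies. The position of a signal can therefore be exact only for the 16569 features with 1 copy, of which 14779 lay on chromosome X. Even there it is uncertain where fragments were shared with other places.

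The compared cells were J1 mouse embryonic stem cells at day 0 of the genotypes labelled TKO_FL and TKO, with 1 poly(A)-selected RNA library each out of 11 samples in the series. Other samples of the series spell the TKO genotype as DNMT TKO, that is, mutant for DNA methyltransferases; the sources used here do not give what FL stands for, the alleles behind either label or whether a line is a single clone. Both lines grew with serum and LIF on fibroblast feeders treated with mitomycin C, so feeder RNA can be part of either library. The repeat table held 1179815 fragments for TKO_FL and 1327700 for TKO, and the gene table held 10084490 and 10860312. Repeat values are given as TPM, a length-normalised share of all repeat signal, and gene values as TPM of all gene signal; the scales differ and are not compared as levels. With 1 library per genotype no difference has a replicate check and no p-value is given. Intervals are 95% intervals for counting error only, and log2 values are TKO_FL over TKO.

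LINE-1 elements are retrotransposons that copy themselves through an RNA intermediate with an internal promoter and their own reverse transcriptase. Lx elements are rodent L1 copies, L1M elements are older mammalian-wide copies, and HAL1 elements are relatives that lack part of the L1 coding sequence. Such old copies are truncated and mutated, no longer move, and often lie in introns and untranslated regions, where they are carried in host transcripts. In mouse embryonic stem cells young L1 promoters are held down by DNA methylation, by histone H3 lysine 9 methylation set through TRIM28 and SETDB1, and by the HUSH complex.

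Old L1 sequence also occurs at gene starts. Here 3 such promoters are shown, because sequence of a measured older L1 copy could be read only in promoter windows. Of 32817 RefSeq promoter windows (GRCm38.p6, 250 bases before to 50 after the start), 1017 or 3.10% overlapped an older L1 copy, and in 455 or 1.39% the start site itself lay in it. Lx copies overlapped 1.44% of the windows and L1M copies 1.06%. Features with at least 20 fragments over both libraries overlapped 23 windows, 13 of them by at least 100 bases. The 3 printed genes were chosen from these 13 windows, among symbols that are not predicted Gm names. Not every chromosome was considered for printing. The 250 bases before the start are given 5′ to 3′ on the gene's strand, with the bases inside the L1 copy in capitals.
A430018G15Rik: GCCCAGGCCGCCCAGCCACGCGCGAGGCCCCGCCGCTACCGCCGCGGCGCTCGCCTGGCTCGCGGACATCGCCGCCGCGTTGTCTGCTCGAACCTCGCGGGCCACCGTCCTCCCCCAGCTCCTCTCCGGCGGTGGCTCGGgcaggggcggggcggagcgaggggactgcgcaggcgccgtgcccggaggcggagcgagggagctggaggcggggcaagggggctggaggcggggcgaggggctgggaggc
D430001F17Rik: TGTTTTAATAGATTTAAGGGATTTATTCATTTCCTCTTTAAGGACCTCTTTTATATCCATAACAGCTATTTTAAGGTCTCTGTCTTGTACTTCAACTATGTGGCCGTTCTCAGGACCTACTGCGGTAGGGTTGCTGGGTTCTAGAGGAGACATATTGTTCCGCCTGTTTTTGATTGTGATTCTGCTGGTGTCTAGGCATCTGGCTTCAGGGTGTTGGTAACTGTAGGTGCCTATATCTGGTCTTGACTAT
Ints12: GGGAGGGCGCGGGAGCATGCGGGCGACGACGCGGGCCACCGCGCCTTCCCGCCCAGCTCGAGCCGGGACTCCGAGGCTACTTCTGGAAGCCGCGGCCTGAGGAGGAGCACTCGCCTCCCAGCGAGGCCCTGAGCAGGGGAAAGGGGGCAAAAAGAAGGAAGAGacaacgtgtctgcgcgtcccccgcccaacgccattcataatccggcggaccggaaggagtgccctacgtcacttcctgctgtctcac
The A430018G15Rik window (chr2:52424762-52425011, plus strand) carries 140 bases of an L1M4b copy with 24 CG dinucleotides, the target of DNA methyltransferases. The D430001F17Rik window (chr16:91953760-91954009, plus strand) lies wholly in an L1_Mur3 copy and has 3 CG dinucleotides in 250 bases. The window of Ints12, a subunit of the Integrator complex, (chr3:133091605-133091854, plus strand) holds 163 bases of a second L1M4b copy with 17 CG dinucleotides. The first of these features, L1M4b_dup16, had 10.1 TPM in TKO_FL and 8.79 TPM in TKO over its 20 copies. The feature at Ints12, L1M4b_dup72, had 8.22 TPM in TKO_FL and 12.5 TPM in TKO over 16 copies. The feature at D430001F17Rik, L1_Mur3_dup1006, had 1.33 TPM in TKO_FL and 0.969 TPM in TKO over 17 copies. All 3 were low, and their values are sums over copies elsewhere, so none can be assigned to the promoter shown.

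The DNA methyltransferase genes set the background of the comparison. Dnmt1, the maintenance methyltransferase, had 1177 TPM in TKO_FL and 54.9 TPM in TKO on the gene scale. Dnmt3a had 8.12 and 7.85 TPM in TKO_FL and TKO, and Dnmt3b, its fellow de novo enzyme, had 17.6 TPM in TKO_FL and 36.9 TPM in TKO. Gene-level values do not show whether a deleted part of a gene is missing. The cells carried the markers of embryonic stem cells in both libraries, with a summed level over 8 markers of 11590 TPM in TKO_FL and 9189 TPM in TKO. All 12 primitive endoderm markers were at least 2-fold lower in TKO_FL, where 2.78% of the 13151 genes with a mean of at least 1 TPM were, with sums of 87.7 TPM in TKO_FL and 601 TPM in TKO and none of them at 0. Of the 12 fibroblast markers, 11 reached 1 TPM and 4 of these were at least 2-fold lower, with sums of 821 TPM in TKO_FL and 1103 TPM in TKO over all 12 and none at 0. The part of these other cell types in the older L1 values was not tested, and in bulk RNA fewer cells of a type cannot be told apart from less RNA per cell.

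Older L1 features summed to 16065 TPM in TKO_FL and 14505 TPM in TKO, a log2 ratio of 0.15 (0.10 to 0.19). The difference came from the L1M names. L1M features summed to 10645 TPM in TKO_FL and 9114 TPM in TKO, a log2 ratio of 0.22 (0.16 to 0.29). Lx features summed to 3614 TPM in TKO_FL and 3509 TPM in TKO, a log2 ratio of 0.04 (-0.02 to 0.11) whose interval includes 0. The Lx ratio was 0.18 lower than the L1M ratio on the log2 scale (-0.18, -0.27 to -0.09). Counted as fragments, where long features weigh more, the libraries differed less. Older L1 features took 4.39 of every 100 repeat fragments in TKO_FL and 4.28 in TKO, and L1M features 1.75 in TKO_FL and 1.72 in TKO. Scaled by gene fragments the direction was the other way, with log2 ratios of -0.03 for older L1 and -0.04 for L1M. The summed TPM of all repeats other than L1 gave a log2 ratio of -0.002.

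A single short feature made up most of the difference. L1MA9_dup366 is a copy of 55 bases on the plus strand at chrX:161234567-161234621 (mm10), and 9 of its bases lie in an exon of Scml2, a Polycomb-related gene, on the same strand. It had 1496 TPM from 97 fragments in TKO_FL and 258 TPM from 18 fragments in TKO, a log2 ratio of 2.53 (1.80 to 3.35). Scml2 itself had 50.3 TPM in TKO_FL and 14.1 TPM in TKO on the gene scale. The feature is under the minimum of 200 bases for naming single features and was singled out after its values were seen. Dividing by so short a length gives few fragments a large TPM. Its TPM difference of 1238 compares with a net 1560 for all older L1 features, and L1M4_dup1075 added 316. Without L1MA9_dup366 older L1 summed to 14569 TPM in TKO_FL and 14247 TPM in TKO (log2 0.03), and without both features to 12176 and 12169 TPM in TKO_FL and TKO. L1M without L1MA9_dup366 had a log2 ratio of 0.05, and without both features of -0.005. The Lx minus L1M difference was -0.005 without L1MA9_dup366.

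Within L1M the subgroup sums followed single features. The numbered names such as L1M4 and L1M5 formed the largest subgroup, with 4173 TPM in TKO_FL and 3707 TPM in TKO (0.17, 0.06 to 0.28). The L1MA names, the youngest of the mammalian-wide subgroups, summed to 1807 TPM in TKO_FL and 538 TPM in TKO, which includes L1MA9_dup366, on 1357 and 1394 fragments. The L1ME names summed to 2350 TPM in TKO_FL and 2513 TPM in TKO, a log2 ratio of -0.10 (-0.15 to -0.04). L1MD names had 854 TPM in TKO_FL and 975 TPM in TKO (-0.19, -0.35 to -0.03), whereas L1MB had 716 and 654 TPM and L1MC 745 and 726 TPM in TKO_FL and TKO, both with intervals that include 0. Without L1MEi_dup20 and L1MEi_dup21 the L1ME names had 1352 TPM in TKO_FL and 1299.9 TPM in TKO (0.06), and without L1MD_dup405 the L1MD names had 446 and 420 TPM in TKO_FL and TKO (0.09), so both differences changed sign. Scaled by repeat fragments the L1MD ratio was 0.12. L1ME was also the densest of these, with 0.900 fragments per kb in TKO_FL and 1.07 in TKO, against 0.144 and 0.148 for L1MA in TKO_FL and TKO. The same 2 L1MEi features held 4304.5 of the 7865 L1ME fragments in TKO_FL and 5609.25 of 9383 in TKO. The L1_M, L1_Rod and L1VL names gave 1284 TPM in TKO_FL and 1360 TPM in TKO (-0.08, -0.21 to 0.04), and HAL1 names gave 490 and 501 TPM in TKO_FL and TKO (-0.03). L1P names had 17.5 TPM from 18 fragments in TKO_FL and 6.77 TPM from 8 fragments in TKO.

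The signal lay in few features. In TKO_FL 12.4% of older L1 features had any signal and in TKO 13.4%, and 60092 features had none in either library. The highest 26 features in TKO_FL and 39 in TKO carried 50% of the TPM. For L1M these were 6 features in TKO_FL and 8 in TKO, and for Lx 38 and 42 in TKO_FL and TKO. By TPM, L1M signal was thus more concentrated than Lx signal in both libraries. By fragments this did not hold for the leading features. Lx3B_dup601 held 4346.48 of 19497 Lx fragments in TKO_FL and 4565.88 of 20709 in TKO. L1MEi_dup21 held 2872.5 of 20667 L1M fragments in TKO_FL and 3786.25 of 22837 in TKO.

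Older L1 TPM was concentrated in features with a copy that touches an exon of a gene. Features with a copy that touches an exon were 2544, or 3.43% of the older L1 features, yet held 64.1% of the TPM in TKO_FL and 61.1% in TKO. As a share of fragments they held 46.2% in TKO_FL and 45.6% in TKO, at 1.65 and 1.78 fragments per kb in TKO_FL and TKO. Features with a copy in a gene but none touching an exon were 70.8% of the features and held 28.9% of the TPM in TKO_FL and 31.6% in TKO. Features with no copy in a gene held 7.07% in TKO_FL and 7.36% in TKO. L1M names were the more exonic: 6.61% of L1M features touched an exon and held 79.3% of L1M TPM in TKO_FL and 77.6% in TKO. Of Lx features 2.87% touched an exon, with 30.8% of Lx TPM in TKO_FL and 28.9% in TKO. Of the young L1Md features only 1.03% touched an exon, with 6.08% of L1Md TPM in TKO_FL and 4.41% in TKO. Since a feature counts as exonic when any copy is, these shares can include signal of copies outside exons. The 2544 features pool 40027 copies, of which at most 2652 touch an exon.

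**Figure D1:**
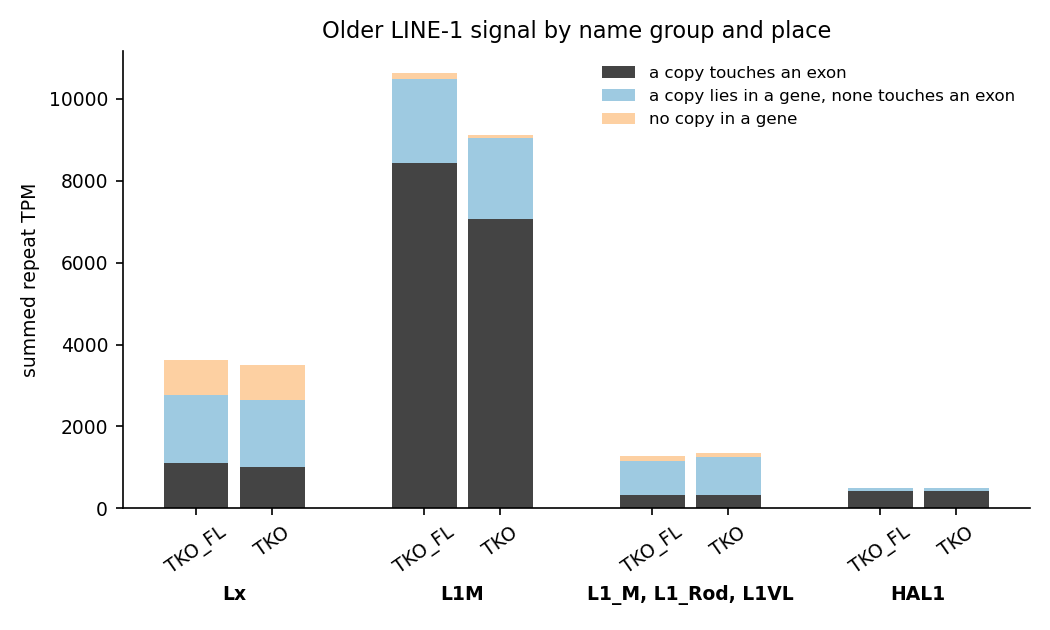
Summed repeat TPM (vertical axis) of the Lx, L1M, L1_M with L1_Rod and L1VL, and HAL1 features in TKO_FL (left bar of each pair) and TKO (right bar), 1 library each, split by the place of the copies. Features that touch an exon held 79.3% of L1M TPM in TKO_FL and 77.6% in TKO, against 30.8% and 28.9% for Lx.

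Among the features with 1 copy, the exonic share depended on the scale and on the name group. The place of such a copy is known, but fragments shared with other places are not placed with certainty. The 53 of them that touch an exon had 4195 TPM in TKO_FL and 2703 TPM in TKO, or 71.6% and 65.1% of the TPM of all 16569 in TKO_FL and TKO. L1M4_dup1075 and L1MA9_dup366 gave most of it, and the other 51 had 305 TPM in TKO_FL and 367 TPM in TKO. As fragments the exonic share was 13.9% in TKO_FL and 11.8% in TKO, and features outside genes held 80.8% in TKO_FL and 83.2% in TKO. Lx3B_dup601, which has shared fragments, gave most of the latter, with 4346.48 of 4472 fragments in TKO_FL and 4565.88 of 4709 in TKO. For L1M features with 1 copy the exonic share of fragments was 89.2% in TKO_FL and 86.6% in TKO. For Lx features with 1 copy the exonic share of TPM was 3.74% in TKO_FL and 3.01% in TKO, against 61.2% and 68.8% outside genes. Of this TPM outside genes, Lx3B_dup601 alone held 662 of 744 in TKO_FL and 647 of 725 in TKO. In genes outside exons the Lx features with 1 copy had 427 TPM in TKO_FL and 297 TPM in TKO. Of the single copies rather than features, 2652 of 737876 (0.359%) touched an exon, 0.625% for L1M and 0.289% for Lx. Of the 2690 pairs of an exonic copy and a gene, 64.2% lay in the gene's last exon and 41.9% on the gene's strand. For L1M the last exon held 69.5% and the gene's strand 37.0%, and for Lx 57.1% and 47.5%. Split by place, the log2 ratio was 0.22 (0.15 to 0.29) for exonic features, 0.02 (-0.04 to 0.08) for those in genes outside exons and 0.09 (-0.04 to 0.22) outside genes. Without L1MA9_dup366 the exonic ratio was 0.03.

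The most abundant feature, L1M4_dup1075, is 201 bases on the minus strand at chrX:136246671-136246871, inside the last exon of Tceal9, a gene of the transcription elongation factor A-like family on the opposite strand. It had 2393 TPM from 567 fragments in TKO_FL and 2078 TPM from 529 fragments in TKO, a log2 ratio of 0.20 (0.03 to 0.38). Tceal9 had 308 TPM in TKO_FL and 288 TPM in TKO. The library kit does not mark strand, so reads of the gene and of the antisense L1 copy cannot be told apart. L1MD_dup405 has a copy at chrX:136170474-136170675 in the last exon of the neighbouring Tceal8. It had 408 TPM in TKO_FL and 555 TPM in TKO (-0.45, -0.69 to -0.20), and Tceal8 had 63.3 TPM in TKO_FL and 84.4 TPM in TKO. Feature and gene were lower in TKO_FL there, and both were higher in TKO_FL at Tceal9.

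Among the next of the high features, 3 have a copy in L1td1. They pool 13, 13 and 20 copies, so their fragments cannot all be assigned to that gene. The gene encodes an RNA-binding protein of pluripotent cells that descends from the first open reading frame of a LINE-1 element, so its own exons are annotated as old L1. L1MEi_dup21 has a copy at chr4:98737452-98738119 in its last exon, on the gene's strand. That feature had 735 TPM from 2872.5 fragments in TKO_FL and 901 TPM from 3786.25 fragments in TKO (-0.29, -0.36 to -0.22). L1MEi_dup20, with a copy at chr4:98733800-98734087, had 263 TPM in TKO_FL and 312 TPM in TKO. HAL1ME_dup23, with a copy at chr4:98737279-98737433, had 255 TPM in TKO_FL and 295 TPM in TKO. The 3 together had 1254 TPM in TKO_FL and 1508 TPM in TKO (log2 -0.27), beside 711 and 881 TPM of L1td1 in TKO_FL and TKO on the gene scale (log2 -0.31).

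Lx3B_dup601 was the most abundant Lx feature and the only one of the 10 highest of at least 200 bases without a gene in the deposited annotation. It is 5571 bases on the minus strand at chrX:152907041-152912611, and RefSeq places the pseudogenes Rpl7a-ps12 and Rps7-ps3, copies of ribosomal protein genes, inside it. Its values were 662 TPM in TKO_FL and 647 TPM in TKO (0.03, -0.03 to 0.09). The fragment numbers were not whole (4346.48 in TKO_FL and 4565.88 in TKO), so some of its fragments had been shared with other places. Lx7_dup1557 has a copy in the last exon of Rian, a noncoding RNA of the imprinted Dlk1-Dio3 domain, at chr12:109660692-109661276. It had 233 TPM in TKO_FL and 196 TPM in TKO (0.25, 0.15 to 0.35), and Rian had 307 TPM in TKO_FL and 263 TPM in TKO. L1M2b with a copy in Cyb5r3, a cytochrome b5 reductase gene, had 268 TPM in TKO_FL and 238 TPM in TKO, and Cyb5r3 had 211 and 188 TPM in TKO_FL and TKO. L1M5_dup1145 in Stk4, a kinase of the Hippo pathway, had 209 TPM in TKO_FL and 179 TPM in TKO, whereas Stk4 had 49.7 TPM in TKO_FL and 55.9 TPM in TKO. L1_Mus2_dup1630 in Aim2, a sensor of cytosolic DNA, had 164 TPM in TKO_FL and 132 TPM in TKO, and Aim2 had 59.4 and 45.4 TPM in TKO_FL and TKO. The intervals of these last 3 features include 0, and of these 3 genes Stk4 alone went the other way from its feature.

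By repeat name, most older L1 differed little between the libraries. Folds of names and single genes are on the log2(TPM + 1) scale, which understates changes of low values, and names with a mean sum of at least 5 TPM were counted. Of 102 such older L1 names, 6 were at least 2-fold higher in TKO_FL, where 5.35% of all 916 repeat names were, and 1 was at least 2-fold lower, where 5.02% of all were. The median log2 fold was 0.06 for older L1 names and -0.005 for all repeat names. Of 20 Lx names 0 were higher and 1 was lower, with a median of 0.07. Of 64 L1M names 3 were higher and 0 lower, with a median of 0.08. Higher calls were thus near the share among all names. The 1 lower call was under that share, but the count depended on the settings. It was 4 with a minimum of 1 TPM and 0 with features of at least 200 bases.

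**Figure D2:**
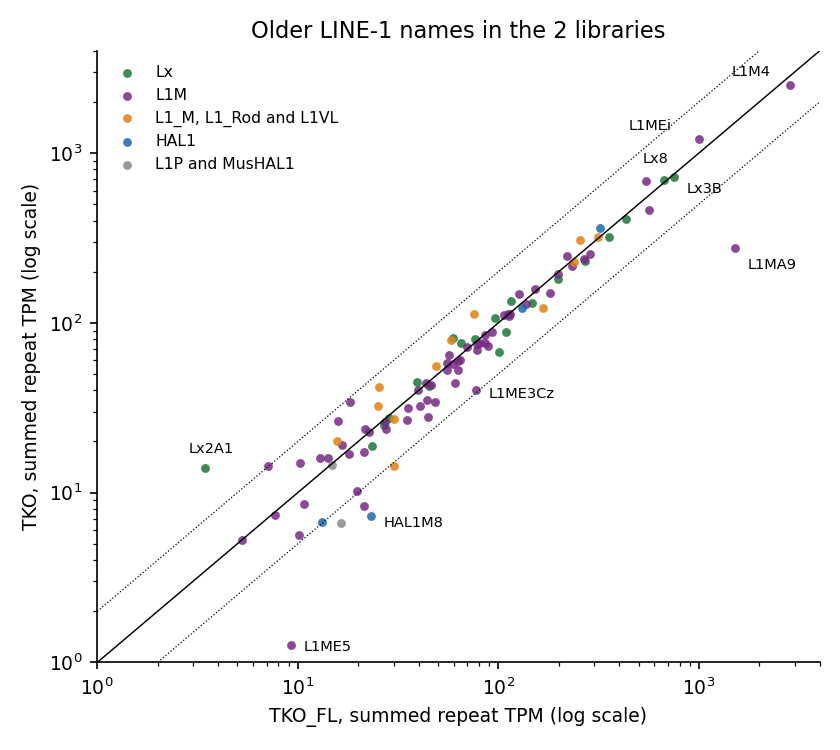
Summed repeat TPM of each older L1 name with a mean of at least 5 TPM in TKO_FL (horizontal axis) and TKO (vertical axis), both on log scales, 1 point per name. The solid line marks equal values and the dotted lines 2-fold; L1MA9, at 1514 TPM in TKO_FL and 276 TPM in TKO, lies farthest from the line among the abundant names.

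The abundant Lx names were nearly level. Lx3B had 749 TPM in TKO_FL and 726 TPM in TKO, Lx8 had 669 and 698 TPM in TKO_FL and TKO, and Lx7 had 434 and 410 TPM. Lx9 had 355 TPM in TKO_FL and 321 TPM in TKO, and Lx8b had 271 and 232 TPM in TKO_FL and TKO. All 5 intervals include 0. Among the abundant L1M names, L1M4 had 2833 TPM in TKO_FL and 2520 TPM in TKO (0.17), and L1M5 had 564 and 462 TPM in TKO_FL and TKO (0.29). L1MEi had 1001 TPM in TKO_FL and 1214 TPM in TKO (-0.28), and L1MD had 547 and 681 TPM in TKO_FL and TKO (-0.32). L1MA9 alone of these passed 2-fold, with 1514 TPM in TKO_FL and 276 TPM in TKO (2.45). L1M4, L1MEi, L1MA9 and L1MD each drew over 70% of their TPM from 1 feature described above.

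The other names past 2-fold were low, and all but L1VL1 rested on under 40 fragments in either library. L1ME5 had 9.23 TPM from 2 fragments in TKO_FL and 1.27 TPM from 6 in TKO. HAL1M8 had 23.3 TPM from 24 fragments in TKO_FL and 7.24 TPM from 25 in TKO, and L1M2a 21.3 TPM from 32 in TKO_FL and 8.34 TPM from 15 in TKO. L1P5 had 16.4 TPM from 16 fragments in TKO_FL and 6.66 TPM from 7 in TKO, all in 1 feature. L1VL1, named after its values were seen, had 30.0 TPM from 98.1 fragments in TKO_FL and 14.4 TPM from 104 in TKO. Lx2A1 was the only name past 2-fold lower, with 3.44 TPM from 16.5 fragments in TKO_FL and 14.0 TPM from 39.2 in TKO. L1ME5, HAL1M8 and L1VL1 had the higher TPM in TKO_FL with fewer fragments there. For the first 2 names, 1 fragment of L1ME5_dup16 (94 bases) and 2 of HAL1M8_dup60 weigh heavily per length. HAL1M8_dup60, of 108 bases, had 2 fragments in TKO_FL and 0 in TKO, where 3 fragments would correspond to 21.9 TPM. The next lowest names, L1MA4A, L1ME3D, L1ME2z and L1VL4, had folds between -0.93 and -0.70.

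The calls by name depended on single features. Without the most abundant feature of each name, 0 of the 7 older L1 names past 2-fold were still past it in the same direction, with folds between -0.91 and 0.81. L1MA9 then had 17.9 TPM in TKO_FL and 18.1 TPM in TKO. Over all repeat names, 28 of 95 calls were still made in the same direction. After the omission 1 older L1 name was past 2-fold higher and 2 were past 2-fold lower.

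**Figure D3:**
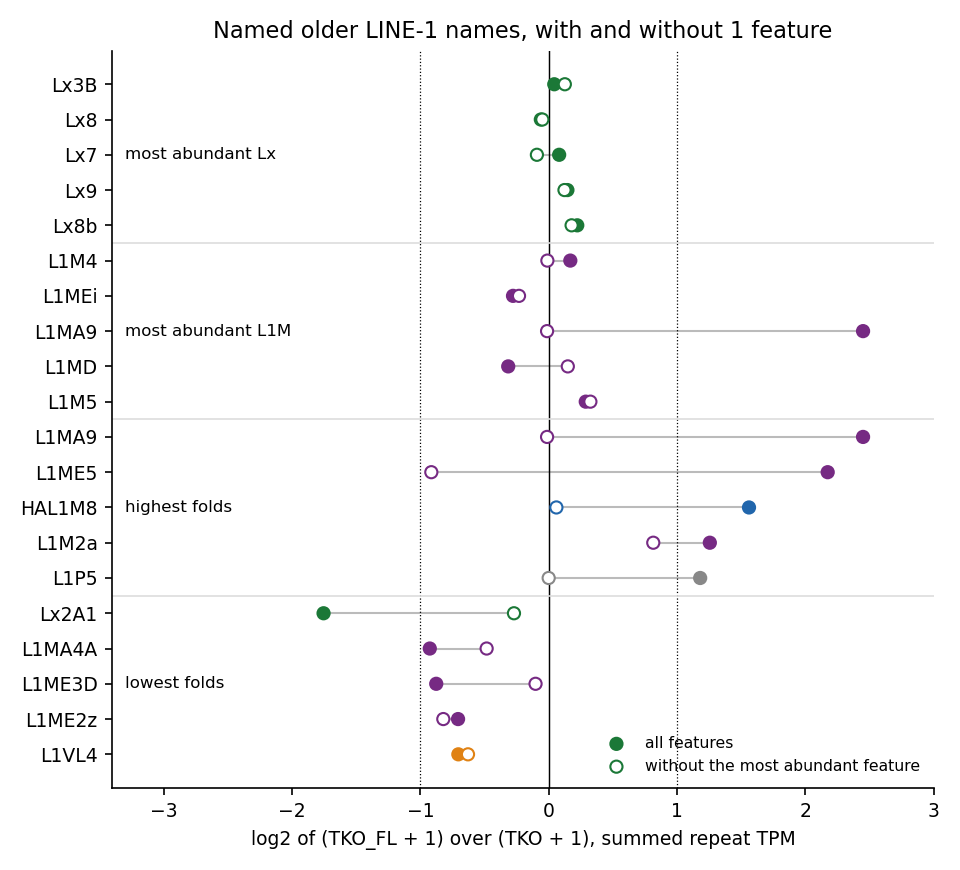
Log2 fold of TKO_FL over TKO, on summed repeat TPM + 1 (horizontal axis), for the most abundant Lx and L1M names and for the highest and lowest folds, with all features (filled) and without the most abundant feature of the name (open). Dotted lines mark 2-fold; L1MA9 goes to -0.01 and Lx2A1 to -0.27 without 1 feature.

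Single features were compared where both libraries together gave at least 20 fragments. Of 584 such older L1 features 26 were at least 2-fold higher in TKO_FL, where 4.27% of all 14677 repeat features were, and 13 were at least 2-fold lower, where 6.55% were. Their median log2 fold was 0.006 and that of all repeat features -0.02. For Lx 6 of 166 were higher and 3 lower, and for L1M 15 of 254 were higher and 8 lower. Features that passed the minimum through their level in 1 library were bound to differ, so the counts describe only these features. Among features of at least 200 bases the highest fold was that of L1_Mur3_dup1539, with 8.29 TPM from 24 fragments in TKO_FL and 1.61 TPM from 5 in TKO. L1M5_dup1194 had 56.8 TPM from 17 fragments in TKO_FL and 15.5 TPM from 5 in TKO. L1MC4a_dup110, with a copy in the predicted gene Gm21283, had 4.59 TPM in TKO_FL and 0.777 TPM in TKO, and Gm21283 had 13.8 and 3.57 TPM in TKO_FL and TKO. L1MA4_dup542 in Smyd3, a lysine methyltransferase gene, had 10.8 TPM in TKO_FL and 2.80 TPM in TKO, and Smyd3 had 12.2 TPM in TKO_FL and 6.81 TPM in TKO. L1M4c_dup21 in Iws1, a transcription elongation gene, had 5.25 TPM in TKO_FL and 1.18 TPM in TKO, while Iws1 had 33.1 TPM in TKO_FL and 27.4 TPM in TKO.

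On the lower side 4 of the 5 named features had under 25 TPM in either library. Lx5_dup1010 had 0.733 TPM in TKO_FL and 5.64 TPM in TKO, and L1M3e_dup61, in the Pbdc1 gene outside its exons, had 6.51 TPM in TKO_FL and 22.2 TPM in TKO. Lx8_dup3418 had 5.41 TPM in TKO_FL and 16.8 TPM in TKO, and L1ME3D_dup24 had 8.53 TPM in TKO_FL and 23.8 TPM in TKO. L1M4_dup1141 is 233 bases at chrX:139943066-139943298 in an exon of Rbm41, an RNA-binding protein gene, on the same strand. It had 40.1 TPM from 11 fragments in TKO_FL and 112 TPM from 33 in TKO. Rbm41 as a whole had 8.54 TPM in TKO_FL and 8.79 TPM in TKO, so this feature and the gene differed unequally. Other features with a copy in an exon of Rbm41, named after their values were seen, varied. L1M4_dup1142 had 55.0 TPM in TKO_FL and 65.1 TPM in TKO (-0.24, -0.95 to 0.45). L1ME1_dup300 had 7.29 and 14.2 TPM in TKO_FL and TKO, and L1MB3_dup169 had 3.60 and 3.11 TPM.

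Exonic features mostly moved with their gene. Compared were features with at least 20 fragments and exactly 1 host gene, itself with a mean of at least 1 TPM. These were 264 features over 222 genes. Their feature fold and gene fold had Pearson's r of 0.66 and Spearman's rho of 0.61, and 190 had the same sign. The features are not independent replicates, and feature and gene share part of the same fragments, so the values are a description. For Lx features r was 0.69 over 60 and for L1M 0.65 over 167, and without L1MA9_dup366 it was 0.63 over 263. Of the 12 such features at least 2-fold higher in TKO_FL, all 12 had a gene with a fold above 0, and 2 had a gene past 2-fold. Of the 4 at least 2-fold lower, 3 had a gene with a fold below 0 and 0 had a gene past 2-fold, with a median gene fold of -0.20. Among the 222 host genes, 5 were at least 2-fold higher and 3 at least 2-fold lower, where 3.35% and 2.78% of the 13151 genes with a mean of at least 1 TPM were. None of the host genes was on the primitive endoderm or fibroblast marker list. Both lists are short, so this does not bear on the part of those cell types in the older L1 values.

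**Figure D4:**
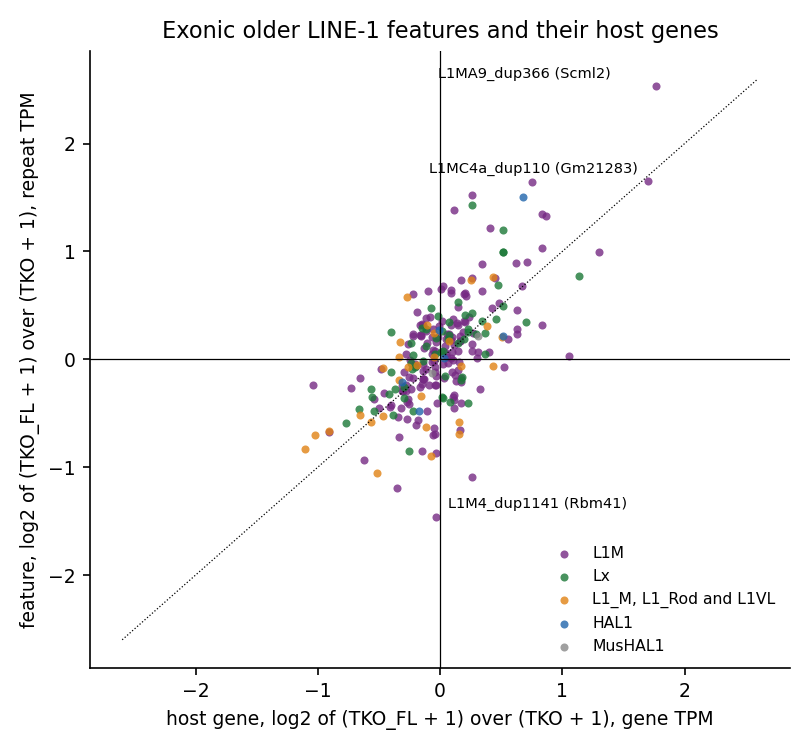
Log2 fold of each of 264 exonic older L1 features on repeat TPM + 1 (vertical axis) against that of its host gene on gene TPM + 1 (horizontal axis), TKO_FL over TKO in both, coloured by name group. The dotted line marks equal folds; 190 features have the sign of their gene, and L1M4_dup1141 stands low while Rbm41 is near 0.

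The listed genes that silence or restrict LINE-1, a list without the DNA methyltransferases given above, showed no 2-fold difference. Of the 25 listed, 24 were in the gene table and 23 reached a mean of 1 TPM. Of these, 0 were at least 2-fold higher and 0 lower, against 3.35% and 2.78% of all genes. Over so few genes, counts of 0 are near these shares and do not set the list apart. The median log2 fold of the listed genes was -0.06, and that of all genes -0.0005. Trim28, the corepressor recruited by KRAB zinc finger proteins, had 1178 TPM in TKO_FL and 1568 TPM in TKO. Setdb1, its partner histone methyltransferase, had 64.1 TPM in TKO_FL and 77.5 TPM in TKO. Both differed by less than 2-fold. Of the HUSH complex and its partner, Mphosph8 had 74.4 TPM in TKO_FL and 85.6 TPM in TKO, Pphln1 had 25.3 and 24.9 TPM in TKO_FL and TKO, and Morc2a had 65.5 and 60.1 TPM. The range ran between Ehmt2, an H3 lysine 9 methyltransferase, with 64.0 TPM in TKO_FL and 108 TPM in TKO (-0.75), and Ythdc1, a reader of N6-methyladenosine, with 99.9 TPM in TKO_FL and 74.8 TPM in TKO (0.41). Mov10, an RNA helicase that restricts L1, had 172 TPM in TKO_FL and 144 TPM in TKO. The nuclease gene Trex1 is listed at 0 in both libraries.

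Older L1 and young L1Md features differed in how their fragments were assigned. L1Md features summed to 1830 TPM in TKO_FL and 1904 TPM in TKO, a log2 ratio of -0.06 (-0.12 to 0.01). Of the L1Md fragments 93.3% in TKO_FL and 94.0% in TKO fell on features with fractional values, against 31.7% and 31.6% of the older L1 fragments in TKO_FL and TKO. Within older L1 this was 39.1% in TKO_FL and 38.0% in TKO for Lx, and 23.2% and 24.9% for L1M. L1M fragments thus fell on features with shared fragments less often than Lx or L1Md fragments did, in both libraries. The mean density was 0.154 fragments per kb in TKO_FL and 0.169 in TKO for older L1, and 0.237 and 0.281 for L1Md in TKO_FL and TKO.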

How the data were processed

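Both libraries are mouse embryonic stem cells, 1 per genotype, and were assigned to groups from their titles. Per the submitters' processing notes, reads were handled with featureCounts, Subread, SAMtools, HISAT2 and Trim Galore (order unknown) on mm10. The sources used here give neither the repeat annotation nor the counting command for repeats. The deposited repeat and gene signal tables were made by the authors as length-normalised values named TPM, whose columns sum to about 10 times the total that defines TPM; they were divided by 10. The deposited gene count table, made with featureCounts 2.0.6 per the file headers, gave gene totals of 19573689 reads in TKO_FL and 21133660 in TKO. Each repeat table has 11 columns of other libraries, which were not used. Value times length, divided by its most frequent product, gave whole fragments for 84.8% of features with signal in TKO_FL and 85.0% in TKO (tolerance 0.001 of a fragment).

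Copies were placed by the exons of the deposited mm10 gene annotation. Group ratios are log2 of summed TPM. Names and genes use log2(TPM + 1), minimum means of 5 and 1 TPM and a 2-fold threshold. Features use a minimum of 20 fragments. Intervals are exact binomial on fragments for single features. For TPM sums they are a normal approximation on the log scale with Poisson fragments, where an exact binomial had been planned. They cover counting error only, since PCR copies are not removed. A value of 0 was bounded by 3 fragments. Named names are the 5 most abundant Lx and L1M names and the 5 highest and lowest folds; named features are the 10 most abundant and the 5 highest and lowest folds of at least 200 bases. Other items named are marked as chosen after their values were seen. The members, gene lists and rules were chosen with earlier results of these data known. Fragment ratios and intervals of well-covered features were tested on simulated fragments with known changes. The interval of a summed TPM ratio was tested on simulated fragments without change. Calls by name, placement in exons and the comparison with host genes were not tested in this way. Python 3.11.15, numpy 2.4.6, pandas 2.3.3, scipy 1.17.1 and matplotlib 3.10.9 were used. Alternatives were other scalings, pseudocounts, minimums and feature sets.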

Additional observations from a re-analysis of the deposited data

How the results depend on the processing

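Of 110 recomputed values, 63 stayed near the value reported and 44 moved. The other 3, all of L1ME or L1MD, changed sign from a difference whose interval excluded 0. Sign changes were tallied apart for these subgroups only. Some moved values of older L1, L1M and Lx minus L1M, given below, also changed sign from a difference whose interval excluded 0. The log2 ratio of all older L1 (0.15) was 0.037 with fragments scaled by all repeat fragments, 0.015 with features of at least 200 bases, 0.032 without exonic features and 0.090 without features in genes. That of L1M (0.22) was 0.026, 0.035, 0.11 and 1.14 in the same settings, the last on 59 fragments in TKO_FL and 47 in TKO. Lx (0.04) moved only to -0.026 without features in genes. Lx minus L1M (-0.18) was 0.057 with repeat-fragment scaling, -0.052 with features of at least 200 bases and -1.17 without features in genes. Alternatives chosen after seeing the data were gene-fragment scaling (-0.027 for older L1, -0.037 for L1M, 0.057 for Lx minus L1M), omission of L1MA9_dup366 (0.032, 0.047 and -0.0046) and omission of L1MA9_dup366 and L1M4_dup1075 (0.00076, -0.0047 and 0.047). Also chosen after seeing the data, L1ME (-0.10) was 0.057 without its 2 leading L1MEi features, and L1MD (-0.19) was 0.090 without L1MD_dup405 and 0.12 with repeat-fragment scaling.

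Older L1 names higher (6) became 3 with a pseudocount of 5, with repeat-fragment scaling and with features of at least 200 bases, 11 at 1.5-fold and 1 without each name's most abundant feature, the last chosen after seeing the data. Names lower (1) became 2 with a pseudocount of 0.1, 4 with a minimum of 1 TPM or none, 5 at 1.5-fold, 3 with whole-fragment features, 0 with features of at least 200 bases and 2 without the most abundant feature. Lx names lower (1) became 0 in the last 2 settings. L1M names higher (3) became 7 at 1.5-fold, 1 with features of at least 200 bases and 1 without the most abundant feature. L1M names lower (0) became 1 with a pseudocount of 0.1, 3 with a minimum of 1 TPM, none, or 1.5-fold, 1 with whole-fragment features and 2 without the most abundant feature. Apart from the stated constructions, the cause was not tested. No paired analysis was possible because each group has 1 library. Depth limits single features: 3 fragments on 200 bases correspond to 12.7 TPM in TKO_FL and 11.8 TPM in TKO.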

Other observations

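L1M features with no copy in a gene had 162 TPM in TKO_FL and 73.1 TPM in TKO, on 59 and 47 fragments in TKO_FL and TKO. The same place gave 852 TPM in TKO_FL and 867 TPM in TKO for Lx, of which Lx3B_dup601 held 662 and 647 TPM in TKO_FL and TKO.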
